A study of Homo sapiens with 12 samples.

Results

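PAX5, EBF1, IKZF1 and IKZF3 are genes of transcription factors that set up and hold B-cell identity, and this account describes H3K27ac, a histone acetylation found at promoters and enhancers in use, at their 4 loci. The members are the H3K27ac peaks of 6 peak lists that lie in fixed hg19 windows: 620 kb of chromosome 9 around PAX5 with the upstream gene ZCCHC7, 460 kb of chromosome 5 around EBF1, 170 kb of chromosome 7 around IKZF1 and 135 kb of chromosome 17 around IKZF3. In all, 1146 of the 235688 listed peaks fell in these windows. Peaks of different lists that shared a base were joined, which gave 214 of the 48876 merged regions: 95 at PAX5, 81 at EBF1, 14 at IKZF1 and 24 at IKZF3. The windows were set by position and not by any measured value.

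The cells were SUDHL4, a line of diffuse large B-cell lymphoma (DLBCL) of germinal-centre type. EP300-KO (2 clones) carried disrupting CRISPR/Cas9 edits in EP300 at exon 17 or exon 24, CREBBP-KO (2 clones) carried them in CREBBP at exon 15 or exon 20, and WT (2 clones) was edited at PPP1R12C and kept both genes. Every clone was grown out from a single cell after editing and kept as a stable line, so both WT clones had also been through editing and cloning, and each genotype rests on 2 clones of 1 cell line. Per the labels, loss of the protein in the knock-outs was checked by sequencing and western blot. For the first CREBBP-KO clone the sample name and the protocol disagree on the exon, and exon 15 is the protocol's. Of the 12 samples, 6 are immunoprecipitated libraries and 6 their inputs, which entered only through the peak lists.

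EP300 and CREBBP encode the paralogous acetyltransferases p300 and CBP, which write H3K27ac at enhancers and promoters, and CREBBP is often mutated in germinal-centre lymphomas. EBF1, a helix-loop-helix factor, opens chromatin of B-lineage genes in early B-cell precursors and activates PAX5. PAX5 commits cells to the B lineage and represses genes of other lineages. IKZF1 (Ikaros) and IKZF3 (Aiolos) are zinc-finger factors of 1 family that act across lymphoid development, with IKZF3 mostly in later B cells. An enhancer of PAX5 is known to lie upstream of it, within ZCCHC7, so ZCCHC7 is treated here as part of the PAX5 locus.

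Promoters are shown first because the regions at the gene starts are the fixed points against which the rest of each locus was read. RefSeq (GRCh38.p14) gave a promoter for 3 of the 4 genes, and IKZF3 had no entry in the table. Each is the 250 bases before the annotated start, 5′ to 3′ on the gene's strand, and for IKZF1, which has 3 entries, the first. Their positions are chr9:37034269-37034518 on the minus strand for PAX5, chr5:159097957-159098206 on the minus strand for EBF1 and chr7:50304466-50304715 on the plus strand for IKZF1. Capitals mark matches on either strand to 4 motifs: an EBF-type palindrome TCCCNNGGGA, the Ikaros core TGGGAA, the ETS core GGAAGT and the TATA box TATAAA.
PAX5: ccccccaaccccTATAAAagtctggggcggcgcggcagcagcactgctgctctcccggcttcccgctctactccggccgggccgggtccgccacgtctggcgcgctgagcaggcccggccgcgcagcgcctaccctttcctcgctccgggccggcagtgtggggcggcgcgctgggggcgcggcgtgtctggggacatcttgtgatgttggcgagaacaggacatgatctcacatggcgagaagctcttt
EBF1: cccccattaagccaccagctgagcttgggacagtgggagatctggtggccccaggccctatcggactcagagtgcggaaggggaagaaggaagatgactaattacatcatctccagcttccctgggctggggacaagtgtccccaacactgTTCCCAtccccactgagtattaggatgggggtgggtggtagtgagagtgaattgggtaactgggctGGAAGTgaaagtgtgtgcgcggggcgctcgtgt
IKZF1: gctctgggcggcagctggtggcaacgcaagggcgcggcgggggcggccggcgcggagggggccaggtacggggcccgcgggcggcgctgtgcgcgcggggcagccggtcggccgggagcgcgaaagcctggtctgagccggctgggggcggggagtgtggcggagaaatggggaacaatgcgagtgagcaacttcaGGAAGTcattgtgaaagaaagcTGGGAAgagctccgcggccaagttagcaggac
The PAX5 promoter holds 1 TATA box match and none of the other 3 motifs. The EBF1 and IKZF1 promoters each hold 1 Ikaros core and 1 ETS core, which do not overlap. Of 35116 RefSeq promoters of the same length, 20.9% hold the Ikaros core, 19.5% the ETS core, 10.7% the TATA box and 1.06% the palindrome, so such matches are common. They are matches of letters only, and no base of these windows was measured for binding.

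The lists held 35054 and 35841 peaks in EP300-KO, 36096 and 41099 in CREBBP-KO, and 46940 and 40658 in WT clones, and covered 26.1 and 26.2, 28.2 and 35.1, and 33.9 and 31.3 Mb of the genome. No library depth is recorded, so whether list length follows depth, yield or biology was not tested. The first WT clone had the most and the narrowest peaks (median width 426 bases, against 453 to 491 in the other lists), and the second CREBBP-KO clone had the widest. Peaks lay at the B-cell marker genes CD79A, CD79B and MS4A1 in all 6 clones, and 5 of 6 markers of other cell types (CD8A, CD14, LYZ, GATA1, ALB) had none in any clone, while CD3E, which marks T cells, had peaks in all 6.

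Covered length at PAX5 and EBF1 was shortest in both EP300-KO clones. The unit is the number of bases under a peak. The PAX5 window had 80.7 and 89.8 kb under peaks in EP300-KO clones, 112 and 138 kb in CREBBP-KO clones, and 114 and 122 kb in WT clones. The EBF1 window had 48.9 and 53.0 kb in EP300-KO clones, 75.02 and 86.88 kb in CREBBP-KO clones, and 75.6 and 78.0 kb in WT clones. In both windows the EP300-KO clones lay below the other 4, and the CREBBP-KO clones overlapped the WT clones. The IKZF1 window had 16.0 and 15.4 kb in EP300-KO clones, 17.0 and 20.7 kb in CREBBP-KO clones, and 17.4 and 18.2 kb in WT clones. The IKZF3 window had 19.1 and 20.0 kb in EP300-KO clones, 21.3 and 26.7 kb in CREBBP-KO clones, and 18.9 and 22.2 kb in WT clones. At IKZF1 the EP300-KO clones were the lowest by a small margin, and at IKZF3 they lay between the 2 WT clones. The mean in EP300-KO was 0.720 of that in WT at PAX5, 0.663 at EBF1, 0.883 at IKZF1 and 0.953 at IKZF3. With 2 clones against 2, an exact two-sided permutation test cannot give a p below 0.333, the value at PAX5, EBF1 and IKZF1.

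**Figure D1:**
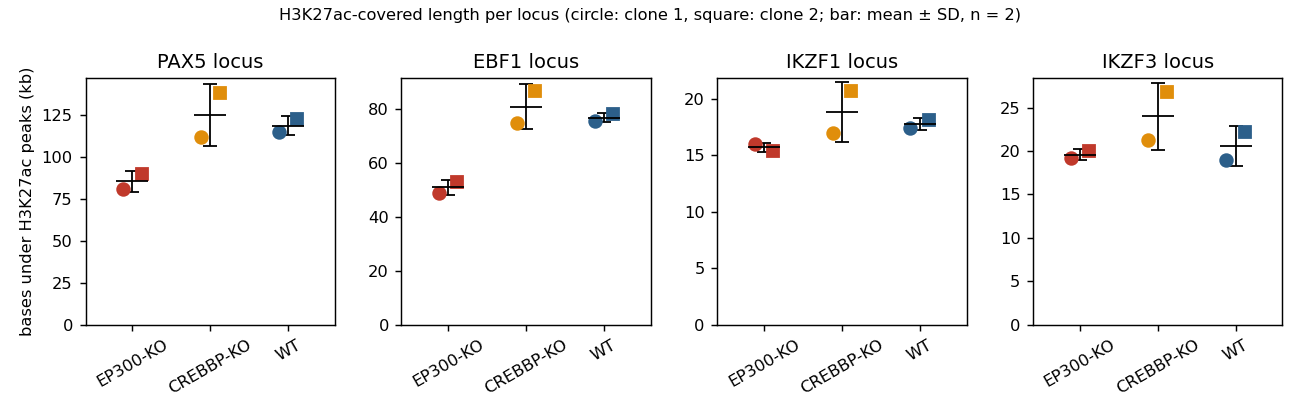
Bases under H3K27ac peaks (y axis, kb, from 0) in each of the 4 loci for EP300-KO, CREBBP-KO and WT clones (x axis); circles and squares are clones 1 and 2, and bars are the mean ± SD (n = 2). At PAX5 and EBF1 both EP300-KO clones sit below all other clones, with means of 85.2 and 51.0 kb against 118 and 76.8 kb in WT clones.

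Covered length was lower in both EP300-KO clones than in either WT clone in 61.6% of the genome's windows of 250 kb, so each locus was set against those windows. The loci, 135 to 620 kb long, differ in length from the windows. The fit (limma on log2 of covered bases plus 100, each clone centred on its median over regions covered in all 6 clones) covered 3770 loci and windows. For EP300-KO minus WT it called 6.76% lower and 2.12% higher at an adjusted p under 0.05 (Benjamini-Hochberg), and none of the 4 loci. The centred log2 difference was -0.27 at PAX5 (SE 0.0998, adjusted p = 0.144), -0.39 at EBF1 (SE 0.0866, adjusted p = 0.0575), 0.02 at IKZF1 (SE 0.0865, adjusted p = 0.876) and 0.14 at IKZF3 (SE 0.122, adjusted p = 0.483), by limma. At PAX5 and EBF1 the difference stayed below 0 after centring but missed the threshold, and at IKZF1 and IKZF3 it was close to its SE or under it. Without the first WT clone the IKZF1 and IKZF3 values turned to -0.05 and -0.02. The EBF1 difference passed with a pseudocount of 1000 (-0.48, adjusted p = 0.0309) and with the spread modelled as a trend on mean covered length, an alternative added after seeing the data (adjusted p = 0.0150, limma).

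Single regions were compared next. Of the 214 regions, 82 reached 500 covered bases in 2 or more clones and entered the fit over 19860 regions. For EP300-KO minus WT, 14 of the 82 were lower and 0 higher, against 5.32% lower and 1.07% higher over all regions tested (limma, adjusted p under 0.05). The 14 split into 10 of 42 at PAX5, 4 of 27 at EBF1, 0 of 4 at IKZF1 and 0 of 9 at IKZF3. The median log2 difference was -0.15 over the 82 regions, against 0.06 over all regions tested. The count was 9 on leaving out the first EP300-KO clone, the first WT clone or the second WT clone, and 6 of the 14 calls held whichever clone was left out. It was 26 with no filter, 9 after quantile normalization and 7 with every list cut to the length of the shortest. Only 2 of the 14 calls were kept in every alternative fit, and several were lost when only the 4 clones compared were fitted. The fit with no filter took every region with a covered base in 2 or more clones, so the 26 is not out of 82. Of the 14, chr9:37304726-37305411 turned to a log2 difference of 0.19 with lists of that length and 0.25 after quantile normalization. That region reached 500 covered bases only in the CREBBP-KO clones.

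**Figure D2:**
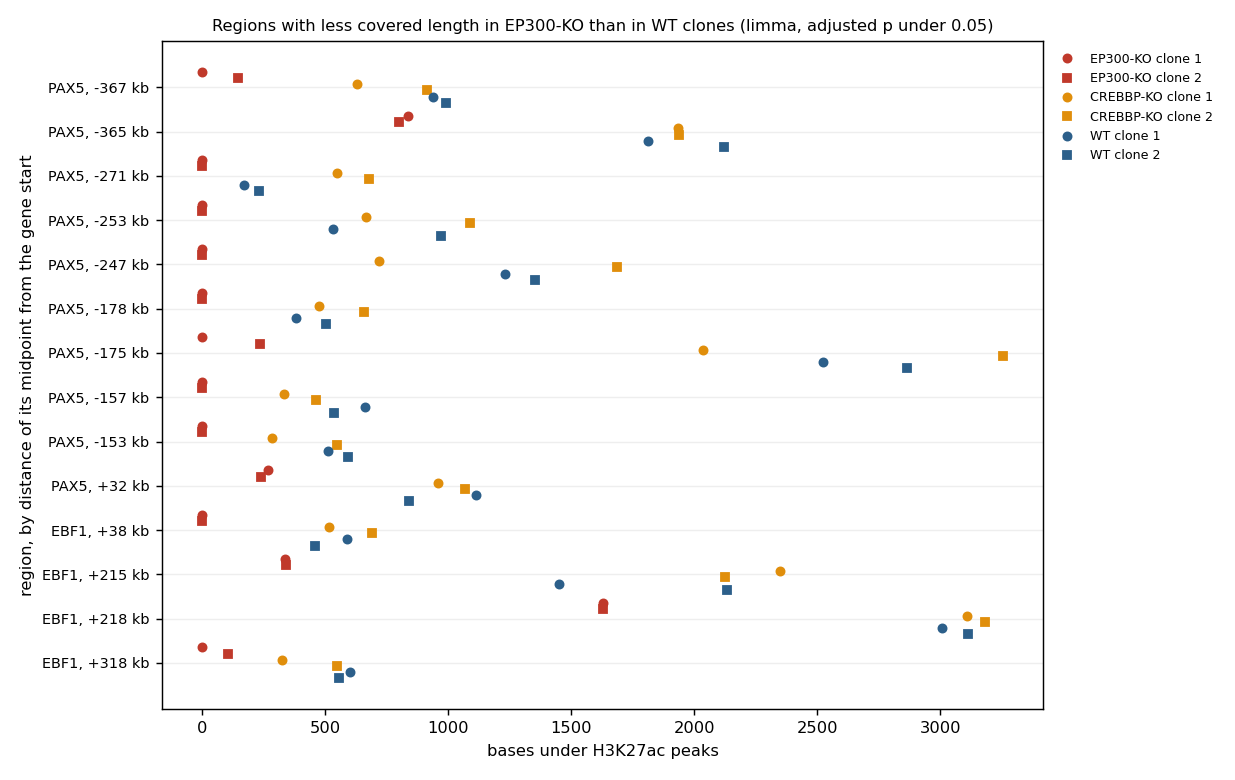
Bases under H3K27ac peaks (x axis) of the 14 regions with less covered length in EP300-KO than in WT clones, listed by distance of the region's midpoint from the gene start (y axis; + into the gene, - upstream). Colours are genotypes, circles and squares are clones 1 and 2; the EP300-KO points lie to the left of both WT points in all 14, and 7 of the 14 have 0 bases in both EP300-KO clones.

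At PAX5 itself the start stayed acetylated in every clone. The region over the PAX5 start (chr9:37032207-37037673) had 4853 and 5041 bases under peaks in EP300-KO clones, 5049 and 5443 in CREBBP-KO clones, and 5414 and 5290 in WT clones. EP300-KO clones were lowest in bases, yet on the centred scale the difference was 0.09 (SE 0.1, limma adjusted p = 0.583), and it turned to -0.11 without centring. Inside the gene, all called change was at 1 region 32.0 kb past the start (chr9:37001882-37003055), with 268 and 240 bases in EP300-KO clones, 958 and 1069 in CREBBP-KO clones, and 1114 and 840 in WT clones. Both EP300-KO values lay far under the other 4, with a log2 difference from WT of -1.39 (SE 0.14, limma adjusted p = 0.0105), a call that every alternative kept. Its neighbour 29.8 kb past the start had 2646 and 2641 bases in EP300-KO clones, 2599 and 2773 in CREBBP-KO clones, and 2753 and 2775 in WT clones, nearly alike in all 6, and was picked after its values were seen. Between 38.7 and 162 kb into PAX5, a stretch of 123 kb, no clone had a peak.

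Upstream of PAX5, ZCCHC7 held most of the called regions, 7 of 18 tested. Under peaks within ZCCHC7 lay 25.1 and 31.3 kb in EP300-KO clones, 46.9 and 59.3 kb in CREBBP-KO clones, and 38.7 and 52.9 kb in WT clones. Regions less than 10 kb apart were taken as 1 cluster, a rule chosen after the map was seen. In the cluster 151 to 178 kb upstream of the PAX5 start, 4.16 and 4.85 kb were covered in EP300-KO clones, 8.50 and 12.8 kb in CREBBP-KO clones, and 11.3 and 11.9 kb in WT clones, so the EP300-KO mean was 38.7% of the WT mean. Nearly all of what EP300-KO kept was 1 core region (chr9:37194960-37201315), which had 4159 and 4618 bases in EP300-KO clones, 5214 and 6047 in CREBBP-KO clones, and 5224 and 5773 in WT clones. The core was narrower in both EP300-KO clones than in the other 4, and its flanks had few or no bases under peaks there.

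Of the 10 called regions of the locus, 4 lay in those flanks. The region 157 kb upstream (chr9:37191397-37192162) had no listed peak in either EP300-KO clone, 333 and 463 bases in CREBBP-KO clones, and 663 and 536 in WT clones, with an adjusted p of 0.00109 (limma). The region 178 kb upstream (chr9:37212247-37212957) had 0 bases in both EP300-KO clones, 474 and 656 in CREBBP-KO clones, and 381 and 505 in WT clones (limma adjusted p = 0.00393). The region 153 kb upstream (chr9:37187126-37187895) had 0 bases in both EP300-KO clones, 285 and 548 in CREBBP-KO clones, and 512 and 593 in WT clones (limma adjusted p = 0.00529). EP300-KO and WT did not overlap in any of the 3, and the calls held without any 1 clone but were lost under quantile normalization. The widest flank (chr9:37207811-37211100), singled out after its values were seen, had 0 and 234 bases in EP300-KO clones, 2037 and 3254 in CREBBP-KO clones, and 2524 and 2863 in WT clones (limma adjusted p = 0.0362). That call was lost on leaving out either CREBBP-KO clone (adjusted p = 0.0986 and 0.101) or either WT clone (0.113 and 0.119), by limma. Where a group had no covered base, the log2 difference depends on the pseudocount, so bases are given here in place of a fold. Such a group also adds almost no spread to the fit, so the p-value there may be too small.

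Another stretch of this kind lay 244 to 275 kb upstream, in the far part of ZCCHC7. That cluster had 9170 and 12500 bases under peaks in EP300-KO clones, 19423 and 23045 in CREBBP-KO clones, and 15975 and 21351 in WT clones, an EP300-KO mean at 58.1% of WT. Its edge region 247 kb upstream (chr9:37280972-37282803) had 0 bases in both EP300-KO clones, 717 and 1684 in CREBBP-KO clones, and 1232 and 1352 in WT clones (limma adjusted p = 0.00611), a call kept by all 14 alternatives. The cluster's core (chr9:37292904-37303542) kept 7076 and 8811 bases in EP300-KO clones, against 10210 and 10630 in CREBBP-KO clones and 9315 and 10467 in WT clones. In the next cluster, 287 to 307 kb upstream, EP300-KO clones had 10233 and 12510 bases, CREBBP-KO clones 16817 and 19000, and WT clones 9305 and 17442. There the first WT clone was the lowest of all, so the groups overlapped and no region of it was called. Beyond ZCCHC7, the widest region of the locus (chr9:37402268-37415826) had 11063 and 11886 bases in EP300-KO clones, 12417 and 13090 in CREBBP-KO clones, and 13054 and 12732 in WT clones, with a centred log2 difference of 0.03 (limma adjusted p = 0.853) that became -0.01 without the second EP300-KO clone.

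**Figure D3:**
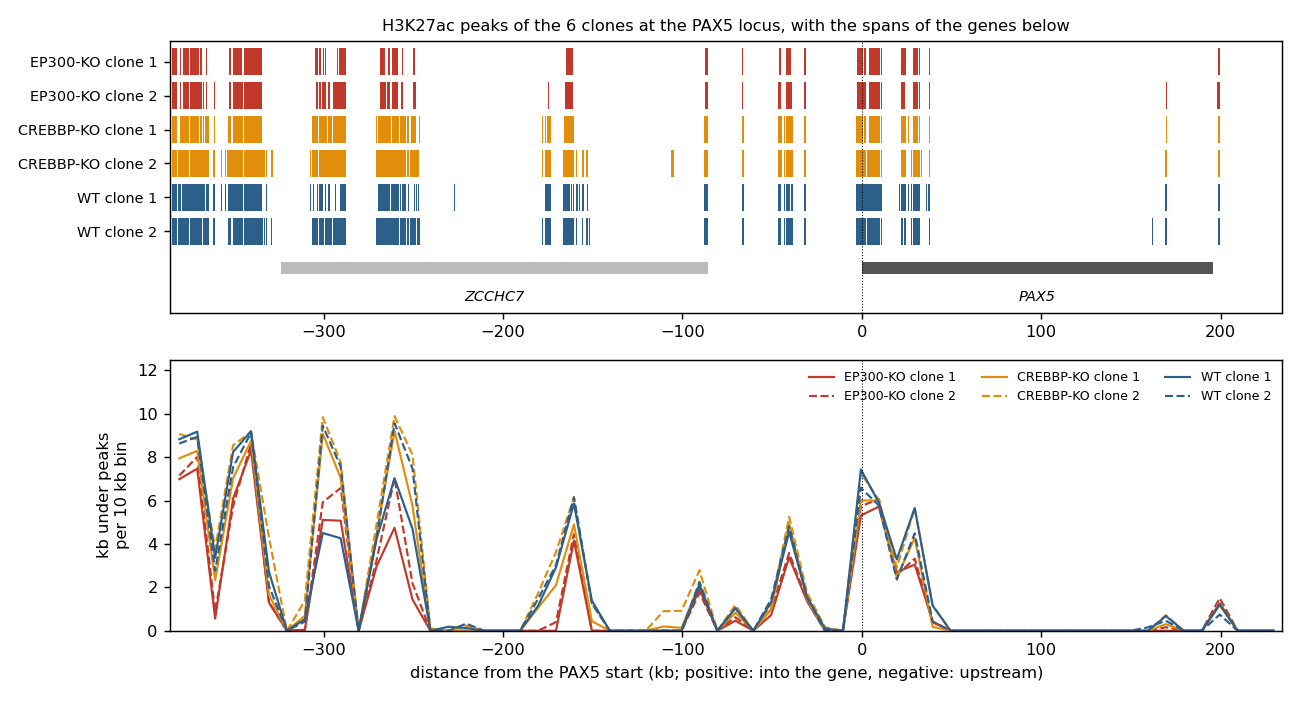
Top, H3K27ac peaks of each clone (rows) by distance from the PAX5 start (x axis, kb; positive into the gene), with the spans of PAX5 and ZCCHC7 below; bottom, kb under peaks per 10 kb bin on the same axis, 1 line per clone. Peaks at the start and near 163.7 kb upstream are in all 6 rows, while the flanks of the upstream block are missing or nearly so from both EP300-KO rows.

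Fixed bins of 10 kb, whose borders do not depend on the lists, were compared in the same way. At PAX5, 4 of 28 tested bins were lower in EP300-KO and 0 higher, and at EBF1 3 of 19 were lower, against 4.13% lower and 1.16% higher of 16656 bins genome-wide. The 4 PAX5 bins are centred 150.5, 180.5, 310.5 and 360.5 kb upstream of the start. The first had 0 bases in both EP300-KO clones, 445 and 1249 in CREBBP-KO clones, and 1391 and 1273 in WT clones (limma adjusted p = 0.0140). The bin 180.5 kb upstream had 0 bases in both EP300-KO clones, 1054 and 1720 in CREBBP-KO clones, and 1149 and 1468 in WT clones (limma adjusted p = 0.00333). The bin 310.5 kb upstream holds the far edge of the cluster 287 to 307 kb upstream, where no region was called. It had 48 and 0 bases in EP300-KO clones, 690 and 1386 in CREBBP-KO clones, and 534 and 427 in WT clones (limma adjusted p = 0.0380). No bin of IKZF1 (5 tested) or IKZF3 (7 tested) was called, which for so few bins is near the genome-wide 4.13%.

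At EBF1 the start had peaks on both sides in every clone, and the called regions lay inside the gene. No merged region spanned the EBF1 start, and the nearest, just inside the gene (chr5:158524102-158526787) had 2501 and 2438 bases in EP300-KO clones, 2516 and 2686 in CREBBP-KO clones, and 2479 and 2456 in WT clones, nearly the same in all 6 (EP300-KO minus WT log2 difference 0.20, SE 0.104, limma adjusted p = 0.313). The next region, on the upstream side (chr5:158526962-158529638), had 1663 and 1722 bases in EP300-KO clones, 1871 and 2656 in CREBBP-KO clones, and 2287 and 2481 in WT clones. Both EP300-KO clones lay under the other 4 there, with a log2 difference of -0.27 (SE 0.132, limma adjusted p = 0.302), and the region was picked after its values were seen. The widest EBF1 region, 46.8 kb into the gene (chr5:158476309-158483709), had 6213 and 6096 bases in EP300-KO clones, 6979 and 7291 in CREBBP-KO clones, and 6304 and 6999 in WT clones, with EP300-KO clones lowest by a narrow margin (log2 difference 0.09, limma adjusted p = 0.660; -0.02 without the first WT clone). Within the gene as a whole, 47.0 and 50.8 kb were covered in EP300-KO clones, 73.0 and 83.8 kb in CREBBP-KO clones, and 72.8 and 75.6 kb in WT clones.

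Of the 4 called EBF1 regions, the one 38.4 kb into the gene (chr5:158488001-158488691) had 0 bases in both EP300-KO clones, 515 and 691 in CREBBP-KO clones, and 589 and 459 in WT clones (limma adjusted p = 0.00128). It held without any 1 clone but not with equal list lengths (adjusted p = 0.481, limma). A cluster 199 to 225 kb into EBF1 had 4.51 and 5.39 kb under peaks in EP300-KO clones, 10.1 and 11.5 kb in CREBBP-KO clones, and 10.5 kb in each WT clone, so EP300-KO kept 47.2% of the WT mean. Within it, chr5:158310602-158313185 had 335 and 339 bases in EP300-KO clones, 2347 and 2125 in CREBBP-KO clones, and 1451 and 2132 in WT clones (log2 difference -1.89, SE 0.248, limma adjusted p = 0.0220). Its neighbour chr5:158306814-158310098 had 1630 and 1629 bases in EP300-KO clones, 3108 and 3182 in CREBBP-KO clones, and 3006 and 3113 in WT clones (log2 difference -0.67, SE 0.119, limma adjusted p = 0.0484). In both, the EP300-KO clones were close to each other and clear of the other 4. The fourth, 318 kb into the gene (chr5:158208167-158208954), had 0 and 105 bases in EP300-KO clones, 323 and 549 in CREBBP-KO clones, and 603 and 558 in WT clones (limma adjusted p = 0.0490).

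Those last 3 calls were sensitive to leaving out single clones. In each region both EP300-KO clones had fewer covered bases than every CREBBP-KO and WT clone. CREBBP-KO values are not part of the EP300-KO minus WT difference, but all 6 clones shared 1 estimate of the spread. A call lost without a CREBBP-KO clone therefore does not show that the difference rests on that clone. By limma, chr5:158310602-158313185 missed the threshold without either CREBBP-KO clone (adjusted p = 0.0540 and 0.0537) or either EP300-KO clone (0.0913 and 0.0663), and chr5:158306814-158310098 missed it without any 1 of the 6 clones, at 0.0536 to 0.210. The region 318 kb into the gene missed it without either CREBBP-KO clone (0.112 and 0.114) or either WT clone (0.152 and 0.138). In all of these fits the log2 difference stayed below 0.

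**Figure D4:**
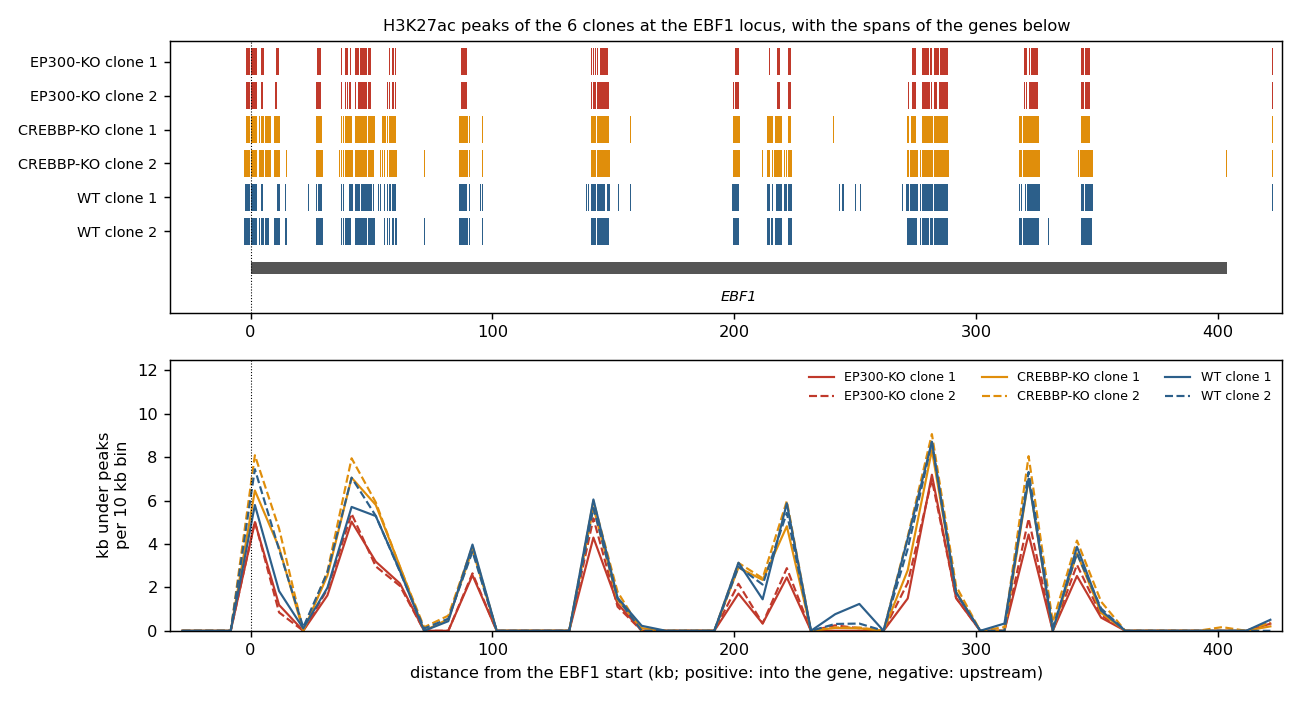
Top, H3K27ac peaks of each clone (rows) by distance from the EBF1 start (x axis, kb; positive into the gene), with the gene span below; bottom, kb under peaks per 10 kb bin, 1 line per clone. At the start all 6 clones have peaks; near 215 kb the EP300-KO lines drop to 335 and 339 bases in the region described, against 1451 and 2132 in WT clones.

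IKZF1 and IKZF3 had no called region in any comparison, with 4 and 9 regions tested. For EP300-KO minus WT, 5.32% of all regions were called lower, so 0 calls among so few is near that share. IKZF1 carried 1 broad region from its start into the gene (chr7:50344172-50357064), with 11456 and 11197 bases in EP300-KO clones, 11913 and 12882 in CREBBP-KO clones, and 10434 and 12626 in WT clones. Both EP300-KO values lay between the 2 WT values, and the log2 difference was 0.18 (SE 0.15, limma adjusted p = 0.473), or -0.02 without centring. The region over the IKZF3 start (chr17:38016783-38022859) had 5413 and 5651 bases in EP300-KO clones, 5822 and 6077 in CREBBP-KO clones, and 4158 and 5539 in WT clones, a log2 difference of 0.40 (SE 0.19, limma adjusted p = 0.289). It is the widest region of its locus, and the first WT clone was the low one. At IKZF1 no clone had a peak between 26.1 and 73.5 kb into the gene. The hg19 assembly is known to carry a gap inside IKZF1, so nothing was read from that stretch.

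**Figure D5:**
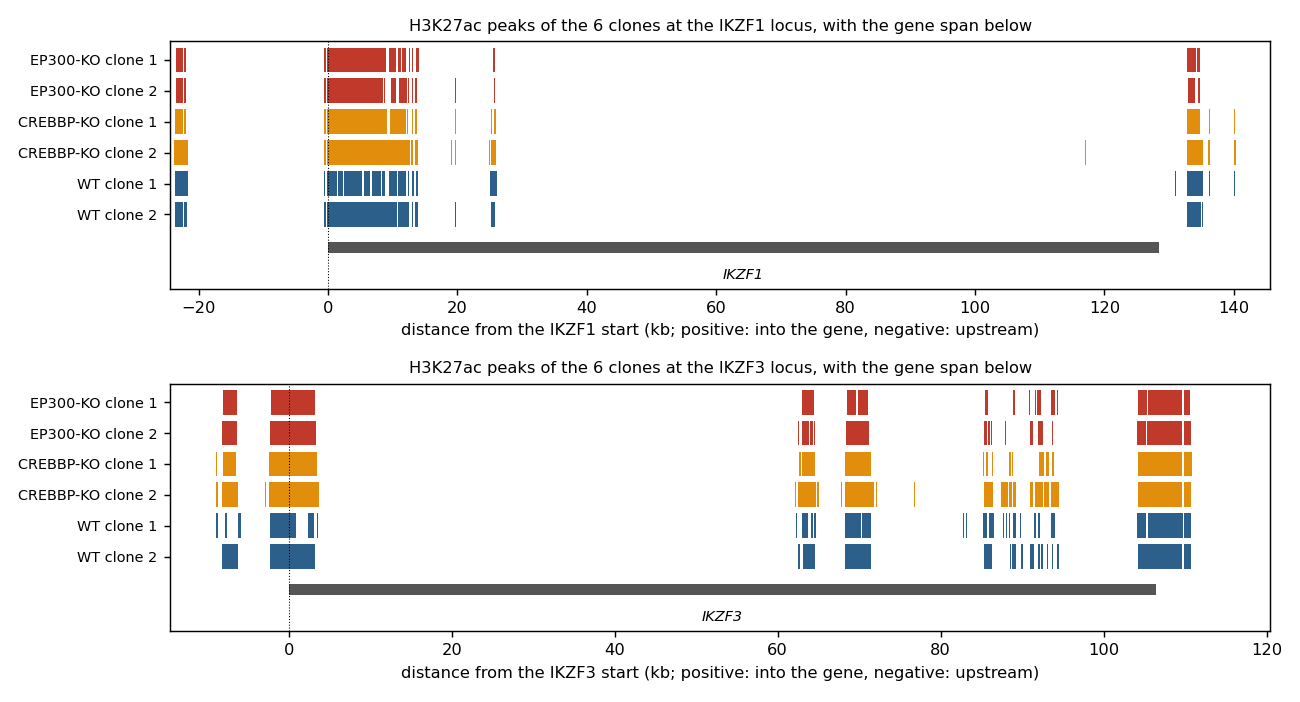
H3K27ac peaks of each clone (rows) by distance from the start of IKZF1 (top) and IKZF3 (bottom) (x axis, kb; positive into the gene), with the gene span below. Both starts carry a broad block of peaks in all 6 rows, broken into pieces in the first WT clone, with 10434 bases at IKZF1 and 4158 at IKZF3.

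Presence of a peak, with no threshold on its length, was counted as well. Of the 214 regions, 42 had a peak in both WT clones and in neither EP300-KO clone, which is 19.6%, against 9.15% of all merged regions. They split into 22 of 95 at PAX5, 18 of 81 at EBF1, 0 of 14 at IKZF1 and 2 of 24 at IKZF3. The reverse, a peak in both EP300-KO clones and in neither WT clone, was found in 0 of 214 regions, against 1.74% of all. Without the second WT clone the first count was 80, without any other WT or EP300-KO clone it was 45 or more, and with equal list lengths it was 11. Leaving out a clone removes a condition, so this count could not fall that way and its rise is no check of the result. The 9.15% is from the full lists, and whether the 11 exceeds the share of all regions at equal list lengths was not tested. At PAX5 the 3 widest were the regions 247.4, 253.1 and 333.0 kb upstream of the start. At EBF1 the 3 widest lay 38.4, 51.1 and 90.5 kb into the gene. The last had 0 bases in both EP300-KO clones, 455 and 528 in CREBBP-KO clones, and 446 and 398 in WT clones. At IKZF3 the 2 regions, 88.5 and 89.9 kb into the gene, were short in every clone, with at most 263 bases. Both EP300-KO clones had fewer covered bases than both WT clones in 102 of the 214 regions, against 33.9% of all regions. Regions with a peak in all 6 clones were 71 of 214, or 33.2%, against 44.8% of all, and their median covered length was 2141 bases, against 73.2 bases for the other members.

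No difference between CREBBP-KO and WT passed the test at these loci. Of the 82 regions tested, 0 were called in either direction by limma, with 3 at an unadjusted p under 0.05, against 0.292% called over all regions. The no-filter fit called 3 lower and 3 higher, and leaving out the second CREBBP-KO clone or the second WT clone gave 1 lower or 2 higher. By locus the log2 difference was 0.11 at PAX5 (adjusted p = 0.629), 0.11 at EBF1 (adjusted p = 0.566), 0.11 at IKZF1 (adjusted p = 0.549) and 0.26 at IKZF3 (adjusted p = 0.395), by limma, with 0.0531% of loci and windows called. A peak in both WT clones and neither CREBBP-KO clone was found in 7 of 214 regions, against 3.05% of all, and the reverse in 3, against 1.25%. These counts moved to between 8 and 28, and between 5 and 24, when a clone was left out, a step that by its rule cannot lower them. The 3 gained regions were 105.5 kb upstream of PAX5, 34.2 kb into PAX5 and 9.29 kb into EBF1. The first (chr9:37139078-37140904) had 0 bases in both EP300-KO clones, 333 and 1827 in CREBBP-KO clones, and 0 in both WT clones, so the CREBBP-KO clones differed widely from each other. Among the lost, the widest at PAX5 was 287 kb upstream and had 278 and 222 bases in the WT clones. At EBF1 it was 52.9 kb into the gene with 304 and 217 bases in WT clones, and at IKZF3 89.9 kb into the gene with 146 and 231.

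Set directly against each other, the knock-outs differed at EBF1. Covered length of the EBF1 locus in CREBBP-KO clones exceeded that in EP300-KO clones by a log2 difference of 0.50 (SE 0.0866, limma adjusted p = 0.0303), where 9.5% of loci and windows were called higher and 4.14% lower. The call was lost without either CREBBP-KO clone (adjusted p = 0.105 and 0.121) or either EP300-KO clone (0.190 and 0.109), by limma. At PAX5 the difference was 0.38 (adjusted p = 0.0643), at IKZF1 0.09 (adjusted p = 0.480) and at IKZF3 0.12 (adjusted p = 0.511), by limma. Of the 82 regions, 12 were higher and 1 lower in CREBBP-KO, against 5.95% and 1.58% over all regions, and 9 of the higher ones were at PAX5 and 3 at EBF1. Without the second CREBBP-KO clone 6 were higher, and the 1 lower call was lost without any 1 of the 6 clones. That lower region (chr9:37419401-37420039) crosses the border of the PAX5 window and had 272 and 383 bases in CREBBP-KO clones, against 494 and 518 in EP300-KO clones. The comparisons of the knock-outs share clones with the comparisons to WT, so agreement between them is not independent.

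Regions with a peak in both CREBBP-KO clones and in neither EP300-KO clone numbered 33 of 214, against 6.5% of all, and the reverse 0, against 2.79% of all. They were 15 at PAX5, 13 at EBF1, 2 at IKZF1 and 3 at IKZF3. The 2 at IKZF1 lay 136.2 and 140.2 kb past the start, with 141 and 326 bases and 133 and 243 bases in the CREBBP-KO clones. In 22 of the 214 regions, or 10.3%, all 4 CREBBP-KO and WT clones had a peak and both EP300-KO clones had none, against 3.85% of all regions. Leaving out the first CREBBP-KO clone moved the 33 to 81, and leaving out a clone could not have lowered it. CREBBP-KO clones exceeded EP300-KO clones in 4 bins of 10 kb at PAX5 and 4 at EBF1, against 5.31% of all bins. The EBF1 bin called in this comparison alone, 51.8 kb into the gene, had 5803 and 5921 bases in CREBBP-KO clones, against 3188 and 2968 in EP300-KO clones, with both groups apart (log2 difference 0.74, limma adjusted p = 0.0394).

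Covered length was also read as wide domains. Peaks of 1 list closer together than the gap customary for stitching enhancers were joined, and domains with at least 10 kb under peaks were kept. The PAX5 window held 3 and 4 domains in EP300-KO clones, 4 and 5 in CREBBP-KO clones, and 4 and 5 in WT clones. EBF1 held 2 and 2 in EP300-KO clones, 4 and 4 in CREBBP-KO clones, and 3 and 4 in WT clones. IKZF1 held 1 in every clone, and IKZF3 held 1 in the second CREBBP-KO and the first WT clone. No domain formed over the cluster 151 to 178 kb upstream of PAX5 in either EP300-KO clone or in the first CREBBP-KO clone, whereas the second CREBBP-KO clone had 12.8 kb there and the WT clones 11.3 and 11.9 kb. The EBF1 domain 199 to 225 kb into the gene was absent from both EP300-KO clones, with 10.1 and 11.5 kb in CREBBP-KO clones and 10.5 kb in each WT clone. The stretch at the EBF1 start lay in a domain in all 4 CREBBP-KO and WT clones, whereas the nearest domain of the EP300-KO clones ended inside the gene, at 158499151 and 158499582 of chromosome 5. These contrasts depend on the gap. With a gap of 5 kb, no clone had a domain over that PAX5 cluster or over the EBF1 stretch 199 to 225 kb into the gene. The EBF1 start then lay in a domain in both CREBBP-KO clones and the second WT clone only. At 5 kb, EBF1 held 2 and 1 domains in EP300-KO clones, 3 and 3 in CREBBP-KO clones, and 2 and 3 in WT clones. The count of domains over the genome was also lower in EP300-KO, at 268 and 291, against 409 and 606 in CREBBP-KO clones and 520 and 474 in WT clones. By the authors' score, the best peak of the PAX5 window stood at the 99.3 to 99.5 percentile of its own list in every clone. That is the highest of 68 to 116 peaks per clone, and a high rank is likely for the best of so many. The median peak of the window stood at the 35.1 to 43.0 percentile. At IKZF3 the best peak stood at the 98.8 to 99.6 percentile.

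Among 15 other genes of B-cell identity and signalling or of the Ikaros family, read through the 250 kb window that holds each start, 14 windows had enough covered bases to test. Against WT, EP300-KO was lower in 2 (CD22 and LEF1) and higher in 0, where 6.76% of windows were lower. The median log2 difference of the 14 was -0.01, against -0.02 over all loci and windows. The window of CD22, an inhibitory co-receptor of the B-cell receptor, had 11.8 kb in each EP300-KO clone, 18.9 and 22.2 kb in CREBBP-KO clones, and 20.3 and 22.2 kb in WT clones (log2 difference -0.65, SE 0.0952, limma adjusted p = 0.0284). LEF1, a factor of the Wnt pathway active in early lymphoid precursors, had 1.55 and 2.04 kb in EP300-KO clones, 5.20 and 5.58 kb in CREBBP-KO clones, and 4.33 and 4.16 kb in WT clones (log2 difference -1.01, SE 0.141, limma adjusted p = 0.0257). In both windows the EP300-KO clones were clear of the other 4.

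Most of the list did not pass. BACH2, a repressor of plasma cell differentiation, had 10.3 and 16.0 kb in EP300-KO clones, 25.7 and 25.6 kb in CREBBP-KO clones, and 30.7 and 22.3 kb in WT clones (log2 difference -0.82, limma adjusted p = 0.106). The surface markers CD79A, CD79B and MS4A1 had log2 differences between -0.08 and 0.04. The other Ikaros family members IKZF2, IKZF4 and IKZF5 lay between 0.01 and 0.13. CREBBP-KO against WT called 0 of the 14, where 2 of the 3770 loci and windows were called, and CREBBP-KO against EP300-KO called CD22 and LEF1 higher (0.63 and 1.38, limma adjusted p = 0.0249 and 0.0141). RAG1, part of the recombinase of antigen receptor genes, had at most 2.06 kb in its window in any clone and was not tested.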

How the data were processed

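H3K27ac ChIP-seq was available as 6 peak lists, 1 per immunoprecipitated clone. Per the labels' protocols, fixed and sonicated chromatin was read as paired ends, and positions are on hg19. SAMtools 0.1.19, Bowtie2 2.1.0 and CASAVA 1.8 are named per the submitters' processing notes. Every list is of 1 clone and names that clone's input as its control, per the file headers. The peak caller, its threshold and the meaning of the score are not given in the sources used here. Peak positions are as deposited, and a first base may be off by 1. The deposited score per peak, the authors' own value, ran from 14 or 15 to 170 and served only to rank peaks within 1 list. The lists give no read counts, so depth per library is unknown and no interval covers counting error. Covered length records how far a signal stayed above the caller's limit, not its height, and moves with depth and ChIP yield.

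Peaks and regions were placed in a locus by their midpoint. Covered bases per merged region, per locus with 250 kb windows over the rest of the genome, and per 10 kb bin were compared on log2(covered bases + 100) with limma 3.58.1 under R 4.3.3. Clones were centred on the median over regions covered in all 6, all 6 shared 1 estimate of the spread, and p-values were adjusted over all features tested (Benjamini-Hochberg, 0.05). Regions and bins needed 500 bases in 2 clones, windows 2000. The 2 clones of 1 genotype could meet this alone, so a region could enter through the group where it was longest. Fits with a clone left out still took the filter from all 6 clones, so they do not check that entry. The region fit was tested on simulated data. Replicate numbers only name clones, and p-values measure the spread between 2 clones of 1 line per genotype. Where both EP300-KO clones had 0 bases, both sat at the pseudocount and added almost no spread. The p-values of such regions and bins may therefore be too small. Regions named in the text are those at the gene starts, the widest per locus, up to 5 called and up to 3 lost or gained per locus and comparison. The members, gene lists and tests were chosen with earlier results of these data known. Where genes lie on hg19 was taken from general knowledge and not from a file. All 26 genes lay on the chromosome that RefSeq (GRCh38.p14) gives, and 22 had a span within 5% of it, with IKZF1, IKZF4, POU2F2 and RAG1 as exceptions. No hg19 genome was used, so no sequence of the called regions is shown. The list counts include 1 gene that is not reported here by name.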

Additional observations from a re-analysis of the deposited data

Results flagged for a closer look

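A direct test of one knock-out against the other, which asks whether their effects differ, passed for 1 locus and 13 regions (limma, adjusted p under 0.05, 2 clones each). For the whole EBF1 locus the CREBBP-KO minus EP300-KO log2 difference was 0.50. For the EBF1 regions at chr5:158306814-158310098, chr5:158310602-158313185 and chr5:158488001-158488691 it was 0.74, 2.25 and 2.64. Inside PAX5, chr9:37001882-37003055 gave 1.49. In the nearer cluster of ZCCHC7, the regions that start at 37187126, 37191397, 37207811 and 37212247 of chromosome 9 gave 2.16, 2.14, 3.71 and 2.56. In the farther cluster, those that start at 37280972, 37287061 and 37304726 gave 3.43, 3.09 and 2.67. Past ZCCHC7, chr9:37398301-37400420 gave 0.99, and chr9:37419401-37420039, at the border of the window, gave -0.68. All but the last were higher in both CREBBP-KO clones than in both EP300-KO clones. Where both EP300-KO clones had 0 bases, the size depends on the pseudocount.

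The region at chr9:37304726-37305411 had 0 bases in both EP300-KO clones, 549 and 679 in CREBBP-KO clones, and 169 and 231 in WT clones. Both EP300-KO clones belong to the shorter lists, and the part of list length in these differences was not tested beyond the fit with equal list lengths.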

How the results depend on the processing

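Over 823 repeats of 96 values, 638 kept the direction and side of the threshold. Here "lower" and "higher" count regions called among those tested in the 4 loci, which were 82 in the main fit. With no filter, every region with a covered base in 2 or more clones entered, so those counts are not out of 82. With equal list lengths the filter was applied to the cut lists. Kept in every alternative were 2 of the 14 calls of EP300-KO minus WT and 2 of the 13 of CREBBP-KO minus EP300-KO. For EP300-KO minus WT, 14 were lower: 26 with no filter, 7 with equal list lengths, 9 after quantile normalization, and 9 to 12 with a clone left out, where 0 to 1 were higher. For CREBBP-KO minus WT, 0 were called: 3 lower and 3 higher with no filter, 1 higher with equal list lengths or quantile normalization, and 0 to 1 lower and 0 to 2 higher with a clone left out. For CREBBP-KO minus EP300-KO, 12 were higher: 24 with no filter and 6 to 13 with a clone left out. Its 1 lower region gave 0 with no centring, no filter, only the 4 clones compared, quantile normalization, the spread as a trend (added after seeing the data) and any clone left out.

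Among locus log2 differences, EBF1 in EP300-KO minus WT passed with pseudocount 1000 (-0.48) and with the trend (-0.39), and PAX5 in CREBBP-KO minus EP300-KO passed likewise (0.46 and 0.38). EBF1 in CREBBP-KO minus EP300-KO lost its call with equal list lengths (0.46), no filter (0.50), quantile normalization (0.26) and single clones left out (0.43 to 0.55). Signs turned for IKZF1 in EP300-KO minus WT (-0.18 with no centring, -0.067 with pseudocount 1000, -0.0453 to 0.0866 with a clone left out), for IKZF3 (-0.0651 with no centring, -0.0159 to 0.2834 with a clone left out), and under quantile normalization for IKZF1 and IKZF3 in CREBBP-KO minus EP300-KO (-0.12 and -0.11). Quantile normalization gives 0 for PAX5 by construction, since that window has the most covered bases in every clone. The PAX5 mean covered length in CREBBP-KO minus WT was 6.50 kb over the window and -0.467 kb over the gene with 10 kb on either side. Among regions in EP300-KO minus WT, no centring turned the PAX5 start (-0.11), the IKZF1 start (-0.0191), the widest EBF1 region (-0.11; -0.0193 to 0.20 with a clone left out) and the widest PAX5 region (-0.17; also -0.0539 with pseudocount 1000, -0.052 after quantile normalization and -0.0074 to 0.10 with a clone left out). The called region at chr9:37304726-37305411 gave 0.19 with equal list lengths and 0.25 after quantile normalization. The cause was not tested in any of these.

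Of regions with peaks, 42 were only in both WT and not in EP300-KO clones: 11 with equal list lengths, 19 with the best-scoring 75% of each list, 18 with peaks within 500 bases joined, 45 to 80 with a clone left out. The reverse was 0 to 2 with a clone left out. Only in WT and not in CREBBP-KO clones were 7: 4 where 50% of a region had to be covered, 1 with equal lengths, 2 with the best 75% and 8 to 28 with a clone left out. The reverse, 3, became 8 with 50% covered, 13 with equal lengths, 1 with peaks joined and 5 to 24 with a clone left out. Peaks shared by both CREBBP-KO clones and missing from EP300-KO were in 33 regions: 17 with the best 75%, 12 with peaks joined and 36 to 81 with a clone left out, and the reverse was 0 to 2. With a clone left out a region has fewer conditions to meet, so none of these counts could fall.

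No paired analysis was possible because replicate numbers only name clones. Limits are the unknown depth, a peak caller's cutoff that makes 0 bases mean below the limit and not no acetylation, and 2 clones per genotype.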
